A study of Homo sapiens with 8 samples.

Results

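Glycolysis genes were followed in HCT116, a human colorectal cancer line, in which NUDT21 carries a degradation tag. The 10 members were fixed by name, from glucose uptake to lactate: SLC2A1, HK1, HK2, PFKP, ALDOA, GAPDH, PGK1, ENO1, PKM and LDHA, among 78932 gene identifiers in the deposited tables. Its protein belongs to cleavage factor Im, a complex that binds UGUA motifs upstream of poly(A) sites. All 8 libraries came from dTAG-NUDT21 cells given JTE-607, an inhibitor of the poly(A)-site nuclease CPSF73. Of these, 4 also received DMSO, the solvent, and 4 received dTAGV1, a degrader of proteins that carry the tag. The labels give neither dose nor time nor clone, and libraries without JTE-607 were not analysed here. The labels number the replicates but do not say that they came from separate cultures, so p-values measure the spread between these libraries, which may be technical.

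Glycolysis converts glucose to pyruvate in the cytosol, and lactate dehydrogenase then reduces pyruvate to lactate and regenerates NAD+. Glucose enters through facilitative transporters such as GLUT1 (SLC2A1), hexokinases trap it as glucose 6-phosphate, and phosphofructokinase makes the committed step. Cancer cells often run this route at a high rate, and several of its genes are known targets of hypoxia-inducible factor (HIF) and MYC.

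Libraries held 8649238 to 9977205 reads, of which 3447842 to 4291256 were assigned to genes in sense orientation. Expression is given as CPM, counts in each 1000000 after TMM scaling of the libraries. The kit reads 1 end of each poly(A) transcript, so CPM was not divided by gene length when levels of genes were compared. Reads that matched no gene in sense orientation were 30.1% to 33.7% of uniquely mapped reads with DMSO and 35.9% to 37.4% with dTAGV1. Reads that matched more than 1 gene are not among them. Mitochondrial genes took 7.98% to 8.56% and 9.22% to 10.4% of counts. The part of both shifts in the values below was not tested, except that leaving mitochondrial genes out of the fit gave the same call for each of the 9 members tested. NUDT21 counts were 104 to 139 with DMSO and 15 to 43 with dTAGV1, which is -1.95 on the log2 scale (standard error 0.18; edgeR, adjusted p = 1.36e-09). The tag acts on protein, so this RNA value does not measure degradation. Summed over 9 epithelial markers, expression was 891 to 1024 CPM with DMSO and 756 to 860 CPM with dTAGV1, and CDX1 had no counts. Within that sum KRT18 fell from 408 to 269 CPM, EPCAM rose from 273 to 331 CPM, and CDH1 was at 57.9 and 58.4 CPM. KRT8 was at 175 and 135 CPM and CDX2 at 34.7 and 29.7 CPM (edgeR adjusted p of 0.0544 and 0.191). KRT20, VIL1 and LGALS4 had 5, 6 and 1 counts in all libraries together. Summed over 10 markers of other cell types, expression was 27.5 to 33.4 and 17.5 to 25.04 CPM, with ALB at 0. Their part in the results was not tested.

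HK2 rose 2.44-fold with dTAGV1, and HK1, PFKP and SLC2A1 fell to 0.666, 0.687 and 0.818 of their DMSO level. GAPDH, PGK1, ENO1, PKM and LDHA did not pass the threshold, and ALDOA had too few counts to be tested. GAPDH and ENO1, whose ranges were apart between the groups, passed it in 8 and 7 of 18 alternatives, and whether members differed from each other in response was tested only for paralogs. Of the 9 members tested, 4 (44.4%) were called at an adjusted p under 0.05, beside 57.9% of all 12618 tested genes. The 1 member called higher stands beside 29.4% of all tested genes called higher, and the 3 called lower beside 28.5% called lower. The CPM ranges of both groups were apart for 5 members (55.6%), beside 50.9% of all tested genes. The median log2 fold change of the 9 was -0.14, and that of all tested genes was 0.01. Unless an alternative or a left-out library is named, each edgeR p-value is from 1 quasi-likelihood fit, with Benjamini-Hochberg adjustment across the 12618 genes tested. Each alternative was fitted and adjusted on its own.

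**Figure D1:**
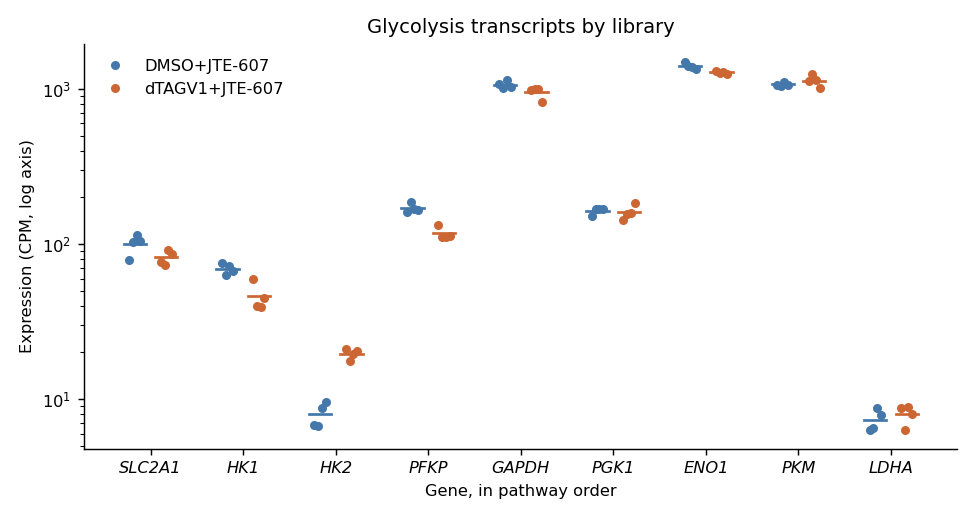
Expression of the 9 tested members in each library (CPM, log axis), in pathway order, with 4 points a group and a bar at the group mean. HK2 is higher in all 4 dTAGV1 libraries, HK1 and PFKP are lower in all 4, and PKM, PGK1 and LDHA overlap between the groups.

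Levels spanned a wide range. In DMSO libraries the order was ENO1 at 1410 ± 56.6 CPM, PKM at 1072 ± 24.98, GAPDH at 1066 ± 63.0, PFKP at 170 ± 10.5, PGK1 at 165 ± 7.91, SLC2A1 at 100.4 ± 15.5, HK1 at 69.3 ± 5.31, HK2 at 8.01 ± 1.45 and LDHA at 7.38 ± 1.19 (SD, n = 4). PKM and GAPDH overlapped in range, as did PFKP and PGK1, and HK2 and LDHA, so their order is not resolved. With dTAGV1 the ranges of these neighbours were apart, with PKM above GAPDH, PGK1 above PFKP and HK2 above LDHA. The LDHA value rests on 21 to 34 counts a library. Whether reads of LDHA were given to no gene was not tested, so its place in this order may not be that of its RNA. ENO1, GAPDH and PKM made up 86.7% to 88.3% of the members' counts in DMSO libraries and 87.2% to 89.6% in dTAGV1 libraries. All 10 members together took 0.405% to 0.424% of sense counts with DMSO and 0.350% to 0.377% with dTAGV1, without overlap.

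The promoters of the called members are shown for a view of the sequences before their starts. Each run is the 250 bases before a RefSeq start of its gene on GRCh38.p14, 5′ to 3′ on the strand of the gene. Where a member has further starts, the bases before those were not searched. Capitals mark the core of the HIF response element, ACGTG, or its reverse complement CACGT. Within the E-box CACGTG, the motif bound by MYC, both overlap.
HK2: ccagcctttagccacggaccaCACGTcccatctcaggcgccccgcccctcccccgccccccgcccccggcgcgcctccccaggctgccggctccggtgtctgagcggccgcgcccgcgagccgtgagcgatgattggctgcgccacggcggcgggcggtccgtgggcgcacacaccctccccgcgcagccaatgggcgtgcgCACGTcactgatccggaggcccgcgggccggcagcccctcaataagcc
HK1: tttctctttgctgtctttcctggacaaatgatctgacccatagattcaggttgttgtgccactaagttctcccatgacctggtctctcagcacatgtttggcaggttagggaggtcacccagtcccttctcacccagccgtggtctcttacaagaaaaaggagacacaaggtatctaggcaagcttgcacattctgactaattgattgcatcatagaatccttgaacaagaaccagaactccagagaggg
SLC2A1: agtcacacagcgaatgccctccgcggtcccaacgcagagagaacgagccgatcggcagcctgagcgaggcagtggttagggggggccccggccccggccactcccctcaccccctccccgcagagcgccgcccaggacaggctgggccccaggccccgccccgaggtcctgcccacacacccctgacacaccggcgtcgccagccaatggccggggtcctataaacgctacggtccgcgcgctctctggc
PFKP: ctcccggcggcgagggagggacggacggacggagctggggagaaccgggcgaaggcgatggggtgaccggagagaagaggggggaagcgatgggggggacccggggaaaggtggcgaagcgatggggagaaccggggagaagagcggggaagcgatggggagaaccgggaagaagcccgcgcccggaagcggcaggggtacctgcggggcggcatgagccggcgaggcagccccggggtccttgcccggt
The HK2 run (chr2:74833877-74834126, plus strand) holds CACGT at 2 places. The runs of HK1 (chr10:69269750-69269999, plus strand), SLC2A1 (chr1:42958869-42959118, minus strand) and PFKP (chr10:3067720-3067969, plus strand) hold neither form. All 10 members had a promoter entry, and 5 of them (HK2, ALDOA, GAPDH, PGK1 and LDHA) hold the core on either strand, where 18.5% of 35116 promoters of this length do. Of these 5, GAPDH, PGK1 and LDHA were not called, at log2 fold changes of -0.16, -0.03 and 0.12, and ALDOA was not tested. The E-box stands in 2, GAPDH and LDHA, where 6.34% of promoters hold it. Which start these cells use was not measured, and a match is a description of letters only.

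SLC2A1 encodes GLUT1, the main glucose transporter of many tumour cells (ENSG00000117394; GRCh38 chromosome 1, 42925375 to 42959176, minus strand). Expression in DMSO replicates 1 to 4 was 78.4, 104, 115 and 105 CPM, against 77.1, 73.1, 92.2 and 86.3 CPM for dTAGV1 replicates 1 to 4. DMSO replicate 1 lay among the dTAGV1 libraries, so the groups overlapped. SLC2A1 fell with a log2 fold change of -0.29 (standard error 0.10; edgeR, adjusted p = 0.0209). Without DMSO replicate 3 or 4, or dTAGV1 replicate 2, the edgeR adjusted p was 0.0951, 0.0520 and 0.0602, so this call rests on those libraries. SLC2A3, which encodes the neuronal-type transporter GLUT3, was measured at 13.8 ± 1.66 and 12.7 ± 3.65 CPM (SD, n = 4 per group) and was not called.

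The hexokinases moved in opposite directions. HK2, the inducible isoenzyme that many tumours express highly (ENSG00000159399; chromosome 2, 74833981 to 74893359, plus strand), was at 6.83, 6.75, 8.80 and 9.64 CPM in DMSO replicates 1 to 4. The dTAGV1 replicates 1 to 4 were at 21.0, 17.5, 19.4 and 20.3 CPM. Every dTAGV1 library exceeded every DMSO library, on counts of 25 to 39 and 58 to 86. The log2 fold change was 1.29 (standard error 0.18; 95% interval 0.92 to 1.65; edgeR, adjusted p = 8.9e-07). HK2 was the 1 member that changed by more than 2-fold.

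HK1, the hexokinase of most tissues (ENSG00000156515; chromosome 10, 69269984 to 69401884, plus strand), was at 75.4, 63.4, 71.8 and 66.8 CPM in DMSO replicates 1 to 4. The dTAGV1 replicates 1 to 4 were at 59.8, 40.2, 39.5 and 44.9 CPM. All dTAGV1 libraries were lower, with replicate 1 closest to the DMSO range. HK1 fell with a log2 fold change of -0.59 (standard error 0.12; edgeR, adjusted p = 0.000119). HK1 remained the more abundant of both, but HK2 made up 10.4% of their joint counts with DMSO and 29.8% with dTAGV1.

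A ratio within a library does not depend on how libraries are scaled. The ratio of HK2 to HK1 counts was 0.0939, 0.110, 0.126 and 0.148 for DMSO replicates 1 to 4, against 0.354, 0.440, 0.496 and 0.455 for dTAGV1 replicates 1 to 4. The groups did not overlap, and the mean log2 ratio was 1.88 higher with dTAGV1 (2-sided exact permutation test p = 0.0286, the smallest that 4 against 4 allows). Adjusted over the 6 pairs compared, this p was 0.0857 in the permutation test and missed the threshold. A pair at the smallest p cannot pass this adjustment by itself, since several pairs would have to reach it together. The miss therefore does not decide whether the ratio changed. HKDC1, a hexokinase-like gene that lies next to HK1 on the same strand (chromosome 10, 69220303 to 69267559), rose from 1.04 ± 0.555 to 6.76 ± 1.3 CPM (SD, n = 4 per group), 2.69 as log2 fold change (edgeR, adjusted p = 5.26e-07). Its counts in DMSO libraries were low, so the size of that fold change is less certain than its direction.

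**Figure D2:**
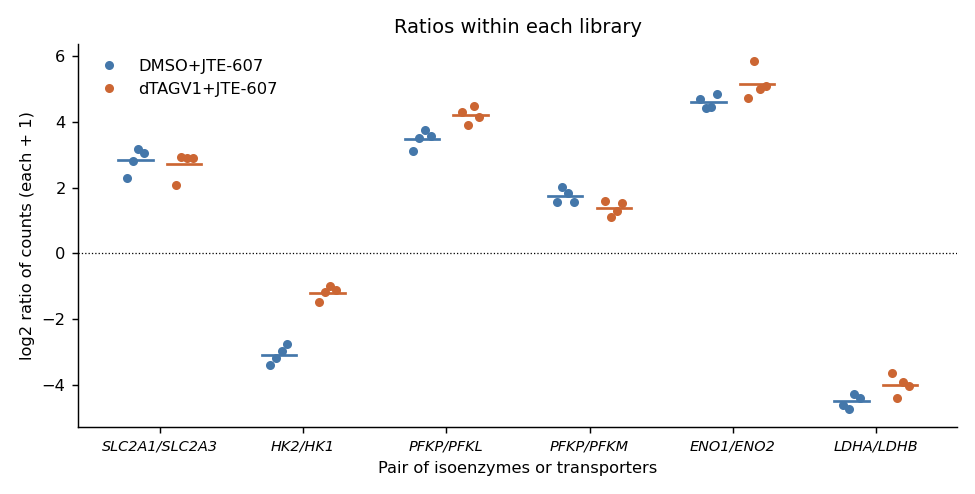
Log2 ratio of counts (each + 1) of a member and its paralog in each library, with 4 points a group and a bar at the group mean. HK2/HK1 and PFKP/PFKL are apart between the groups, and the other 4 pairs overlap.

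PFKP encodes the platelet-type phosphofructokinase (ENSG00000067057; chromosome 10, 3066333 to 3137712, plus strand), an isoenzyme of the committed step. DMSO replicates 1 to 4 were at 162, 186, 168 and 166 CPM, against 133, 112, 112 and 112 CPM for dTAGV1 replicates 1 to 4. The groups did not overlap, and dTAGV1 replicate 1 stood above the other 3. PFKP fell with a log2 fold change of -0.54 (standard error 0.08; edgeR, adjusted p = 2.73e-06). The liver-type gene PFKL fell further, from 15.2 ± 2.8 to 6.16 ± 1.07 CPM (SD, n = 4 per group), -1.29 as log2 fold change (edgeR, adjusted p = 7.65e-06). The muscle-type gene PFKM had a log2 fold change of -0.18 (95% interval -0.41 to 0.05; edgeR, adjusted p = 0.174) and was not called. The PFKP to PFKL log2 ratio rose by 0.72 without overlap (exact permutation p = 0.0286, adjusted over 6 pairs 0.0857). As for HK2 and HK1, a pair at this smallest p could not pass the adjustment by itself. The PFKP to PFKM log2 ratio differed by -0.37 (exact permutation p = 0.0857, adjusted 0.103).

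ALDOA, the main aldolase gene (ENSG00000149925; chromosome 16, 30064164 to 30070457, plus strand), had 3 counts in all 8 libraries together, at most 1 in a library. It did not pass the filter on low counts. In GENCODE 29 the gene AC093512.2 (30053090 to 30070420) runs over it on the same strand, and all 251 stretches of 50 bases in the last 300 bases of the ALDOA transcript also occur in transcripts of AC093512.2. Reads that fit more than 1 gene are counted to none in this layout, and AC093512.2 itself had 0 counts in every library. The annotation used for counting is not given in the sources used here, so whether ALDOA lost reads in this way was not tested. Its value is not read as an RNA level. The paralog ALDOC was at 11.96 ± 7.34 CPM with DMSO and 20.05 ± 1.04 CPM with dTAGV1 (SD, n = 4 per group), 0.76 as log2 fold change (edgeR, adjusted p = 0.0385). DMSO replicate 1, at 23.0 CPM, lay above every dTAGV1 library, and the call was lost in 8 of 16 alternatives: library-size scaling and leaving out any library but that one.

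GAPDH, the glyceraldehyde 3-phosphate dehydrogenase gene and a common reference gene (ENSG00000111640; chromosome 12, 6533927 to 6538374, plus strand), was at 1079, 1010, 1150 and 1026 CPM in DMSO replicates 1 to 4. The dTAGV1 replicates 1 to 4 were at 991, 1005, 1007 and 825 CPM. The ranges were apart by a narrow margin, and replicate 4 was the lowest. The log2 fold change was -0.16 (95% interval -0.31 to -0.01), with an unadjusted p of 0.0409 and an adjusted p of 0.0677 by edgeR. It was called lower in 8 of 18 alternatives, with adjusted p-values from 0.00527 to 0.204 over all of them (edgeR, DESeq2 or limma-voom). In the counts irrespective of strand, GAPDH kept 3.99% of its sense counts. An antisense gene, AC006064.4, covers its end in GENCODE 29. Of the stretches near the GAPDH end, searched as for ALDOA, 13.1% also occur in 2 other genes, GAPDHP40 among them. Whether GAPDH lost reads through this sharing was not tested.

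Of 9 common reference genes, 3 were called higher and 4 lower (77.8%, beside 57.9% of all tested genes). RPLP0, B2M and TFRC rose, with log2 fold changes of 0.38, 0.90 and 0.57 (edgeR adjusted p of 4.27e-05 or less). HPRT1, TBP, PPIA and YWHAZ fell, with values of -1.17, -0.68, -0.61 and -0.36 (edgeR adjusted p of 0.000861 or less). ACTB and GUSB were not called, at -0.13 and -0.06. ACTB was called lower with library-size scaling and without dTAGV1 replicate 4. GAPDH, at -0.16, was farther from 0 than ACTB and GUSB. It was closer to 0 than the 7 reference genes called, which were picked by their calls.

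PGK1 encodes phosphoglycerate kinase, the first ATP-yielding enzyme of the route (ENSG00000102144; chromosome X, 77910739 to 78129296, plus strand). DMSO replicates 1 to 4 were at 153, 169, 168 and 169 CPM, against 144, 157, 158 and 184 CPM for dTAGV1 replicates 1 to 4. The groups overlapped, and the log2 fold change was -0.03 (95% interval -0.20 to 0.13; edgeR, adjusted p = 0.754). PGK1 overlaps ATP7A on the same strand in GENCODE 29, whose counts rose from between 51 and 71 to between 124 and 149, a log2 fold change of 1.21. Reads in shared exons would be counted to neither gene. Of the stretches near the PGK1 end, searched as for ALDOA, 14.3% also occur in 134 other genes, FERMT2 among them. Whether PGK1 lost reads through this sharing was not tested.

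ENO1, the enolase of most cells (ENSG00000074800; chromosome 1, 8861000 to 8879250, minus strand), was at 1487, 1413, 1387 and 1354 CPM in DMSO replicates 1 to 4. The dTAGV1 replicates 1 to 4 were at 1314, 1267, 1296 and 1250 CPM. All dTAGV1 libraries were below all DMSO libraries, by a log2 fold change of -0.14 (95% interval -0.27 to -0.01; edgeR, adjusted p = 0.0610). It was called lower in 7 of 18 alternatives, among them DESeq2 and limma-voom at adjusted p-values of 0.0293 and 0.0333. ENO2, the neuronal-type enolase, fell from 58.2 ± 8.59 to 36.9 ± 11.5 CPM (SD, n = 4 per group), -0.65 as log2 fold change (edgeR, adjusted p = 0.0106). The ENO1 to ENO2 log2 ratio differed by 0.56 with overlap (exact permutation p = 0.0571, adjusted over 6 pairs 0.103).

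PKM encodes pyruvate kinase, whose splice forms PKM1 and PKM2 cannot be told apart in these counts (ENSG00000067225; chromosome 15, 72199029 to 72231822, minus strand). DMSO replicates 1 to 4 were at 1059, 1054, 1109 and 1064 CPM, against 1131, 1248, 1144 and 1021 CPM for dTAGV1 replicates 1 to 4. The dTAGV1 libraries spread on both sides of the DMSO range. The log2 fold change was 0.08 (95% interval -0.06 to 0.22; edgeR, adjusted p = 0.297).

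LDHA encodes the lactate dehydrogenase subunit that predominates in glycolytic tissue (ENSG00000134333; chromosome 11, 18394388 to 18408425, plus strand). DMSO replicates 1 to 4 were at 6.28, 6.51, 8.80 and 7.91 CPM, against 8.79, 6.34, 8.84 and 8.04 CPM for dTAGV1 replicates 1 to 4, on 21 to 34 counts a library. The groups overlapped, and the log2 fold change was 0.12 (95% interval -0.33 to 0.57; edgeR, adjusted p = 0.660). That interval leaves out a fall as large as those of PFKP and HK1, and it allows a rise of up to 0.57. LDHA ranked 10016 of 12618 tested genes by CPM, below LDHB, the gene of the other subunit, at 172 ± 9.32 CPM with DMSO (SD, n = 4). No stretch of 50 bases in the last 300 bases of the LDHA transcript occurs in another gene of GENCODE 29. The annotation used for counting is not given in the sources used here, so whether reads of LDHA were given to no gene there was not tested.

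LDHB fell from 172 ± 9.32 to 132 ± 12.8 CPM (SD, n = 4 per group), -0.39 as log2 fold change (edgeR, adjusted p = 0.000219). The LDHA to LDHB log2 ratio differed by 0.51 with overlap (exact permutation p = 0.0857, adjusted over 6 pairs 0.103). LDHB shares 21.5% of the 50-base stretches near its end with AC010197.2, a same-strand gene with at most 1 count, so part of its reads may be given to neither.

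Steps without a member were read from single or main genes. GPI, the glucose 6-phosphate isomerase gene, fell from 351 ± 11.3 to 270 ± 7.11 CPM (SD, n = 4 per group), -0.38 as log2 fold change (edgeR, adjusted p = 2.93e-05). TPI1, the triose phosphate isomerase gene, fell by nearly the same amount, from 395 ± 17.5 to 305 ± 15.7 CPM (SD, n = 4 per group), -0.37 as log2 fold change (edgeR, adjusted p = 4.87e-05). PGAM1, a phosphoglycerate mutase gene, was at 16.2 ± 0.799 and 16.5 ± 2.13 CPM (SD, n = 4 per group) and was not called, and 13.1% of the 50-base stretches near its end occur in the pseudogene PGAM1P8. BPGM, which makes 2,3-bisphosphoglycerate from an intermediate, rose with a log2 fold change of 0.60 (edgeR, adjusted p = 0.00452). Of the 20 other glycolytic enzyme genes listed, 11 were tested, and 4 were called higher and 5 lower (81.8%, beside 57.9% of all tested genes), with a median of -0.18.

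**Figure D3:**
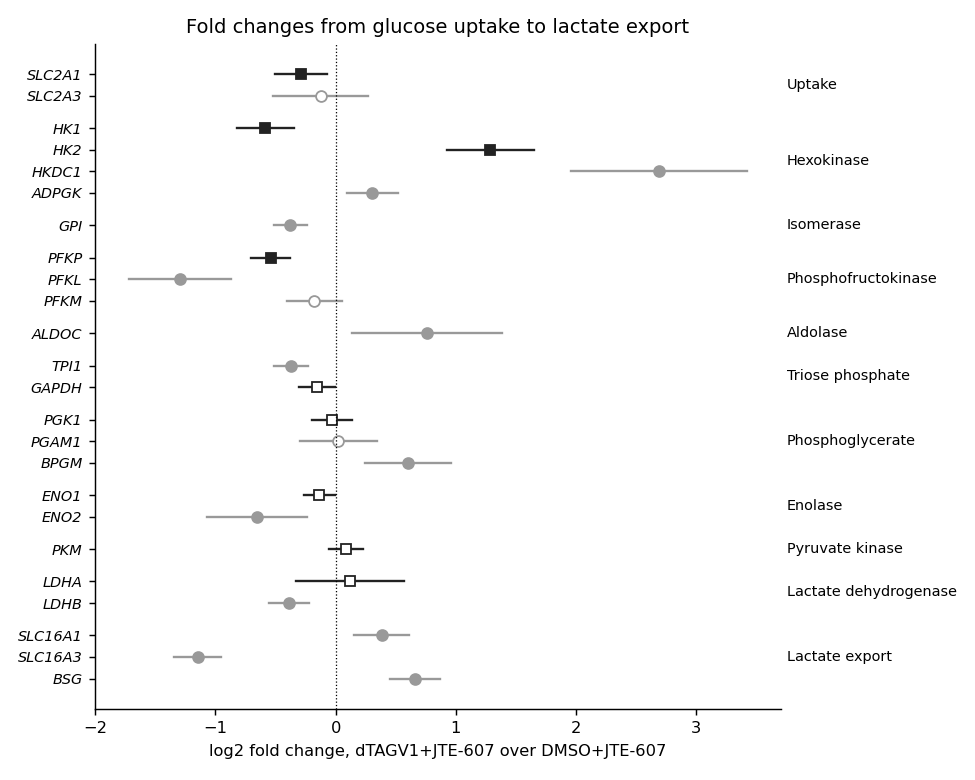
Log2 fold change with its 95% interval for the members (black squares) and other genes of the route (grey circles), ordered from glucose uptake to lactate export, filled where the adjusted p was under 0.05. HK2 and HKDC1 lie to the right of 0 at the hexokinase step, at 1.29 and 2.69, and SLC16A3 lies to the left at lactate export, at -1.15.

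Transporters of lactate moved in opposite directions. SLC16A3, which encodes the lactate exporter MCT4, fell from 125 ± 8.5 to 56.8 ± 7.21 CPM (SD, n = 4 per group), -1.15 as log2 fold change (edgeR, adjusted p = 2.02e-10). SLC16A1, which encodes MCT1, rose with a log2 fold change of 0.38 (edgeR, adjusted p = 0.00453), and BSG, their chaperone basigin, rose with one of 0.66 (edgeR, adjusted p = 9.82e-06). Of 12 transporter genes listed, 7 were tested, 3 were called higher, SLC2A12 (0.89) being the third, and 1 lower (57.1%, beside 57.9% of all tested genes).

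Of 13 tested regulators of the rate, 4 were called higher and 5 lower, beside 29.4% and 28.5% of all tested genes. PFKFB enzymes set the level of fructose 2,6-bisphosphate, which activates phosphofructokinase. PFKFB4 fell from 11.1 ± 1.8 to 2.72 ± 0.788 CPM and PFKFB3 rose from 32.5 ± 1.31 to 41.6 ± 4.97 CPM (SD, n = 4 per group), with log2 fold changes of -2.0 and 0.36 (edgeR adjusted p of 4.11e-07 and 0.00916). PFKFB2 was called lower at -0.98 on few counts, in 14 of 17 alternatives (lost without DMSO replicate 3 or dTAGV1 replicate 3), and with counts irrespective of strand it was at 0.36. The PFKFB3 call was lost without dTAGV1 replicate 4 (edgeR adjusted p = 0.0580). ARRDC4, an arrestin that limits glucose uptake, rose from 1.35 ± 0.685 to 11.8 ± 4.59 CPM (SD, n = 4 per group), 3.10 as log2 fold change (edgeR, adjusted p = 4.38e-08). PDK4, a kinase that inhibits pyruvate dehydrogenase, rose with a log2 fold change of 1.32, and PGP, a phosphoglycolate phosphatase gene, fell with one of -0.76 (edgeR adjusted p of 5.46e-07 and 2.96e-06).

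Factors known to act on glycolysis genes were read next, since members are targets of several. VHL, the ubiquitin ligase subunit that marks HIF for degradation, fell from 123 ± 11.5 to 33.6 ± 3.84 CPM (SD, n = 4 per group), -1.88 as log2 fold change (edgeR, adjusted p = 1.37e-13). The HIF subunit genes HIF1A and EPAS1 rose with log2 fold changes of 0.37 and 1.11 (edgeR adjusted p of 0.000281 and 7.77e-09). The HIF subunit gene ARNT fell, with a value of -0.55 (edgeR, adjusted p = 0.000434). Of 13 HIF and MYC factors listed, 11 were tested, and 3 were called higher and 5 lower. That is 72.7%, beside 57.9% of all tested genes, with a median of -0.55. MYC and MLXIPL, the gene of a glucose-responsive factor, fell with values of -0.63 and -0.88, and MXI1, a MYC antagonist, rose with one of 0.32 (edgeR adjusted p of 6.61e-05, 2.6e-05 and 0.00951). The MXI1 call was lost without dTAGV1 replicate 3 (edgeR adjusted p = 0.0612). Of 14 HIF targets outside glycolysis that were tested, 8 were called higher and 1 lower (64.3%, beside 57.9% of all tested genes), with a median of 0.32. P4HA1, a collagen prolyl hydroxylase gene, rose by 1.79, STC2 by 0.89 and VEGFA by 0.58, and NDRG1 fell by 0.84 (edgeR adjusted p of 0.000255 or less). Among the members, the median was -0.14, with 1 higher and 3 lower. No test compared these lists.

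**Figure D4:**
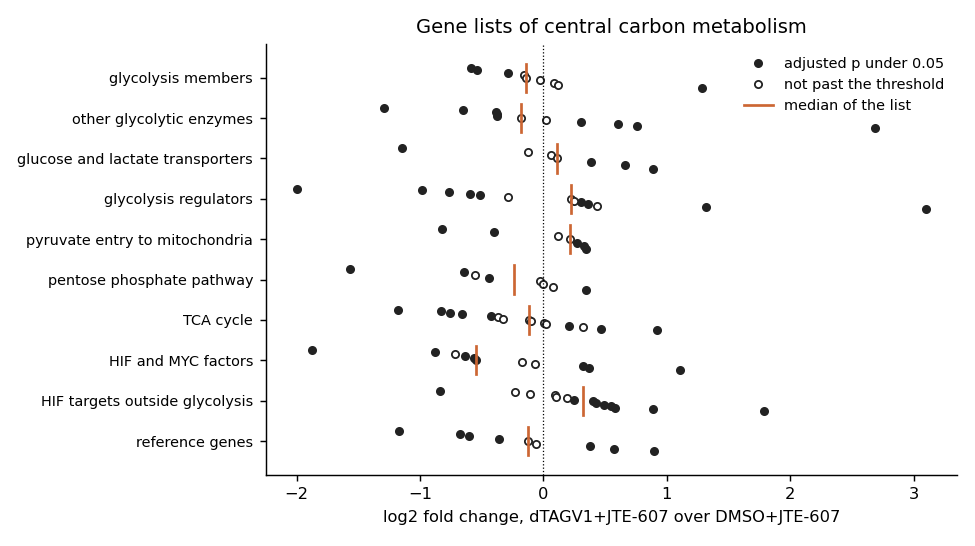
Log2 fold changes of the tested genes of 10 lists, filled where the adjusted p was under 0.05, with a bar at the median of each list. The members run from -0.59 to 1.29, and each list holds genes called in both directions.

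Because NUDT21 is part of the factor that binds UGUA, the last 100 bases of 1 coding transcript of each member in GENCODE 29 were searched for TGTA on the transcript strand. It occurred in 5 of 10 members (HK1, HK2, GAPDH, PGK1 and PKM), beside 50.4% of 19640 coding genes. A stretch of 30 bases around the match nearest the end, with TGTA in capitals, is shown for HK1, which fell, and for GAPDH, which was not called.
HK1: atgacctagtaaacttTGTAccaattcaaa
GAPDH: ccgcaccttgtcaTGTAccatcaataaagt
These lie at chr10:69401853-69401882 and chr12:6538326-6538355 on GRCh38, both on the plus strand. The motif starts 14 bases before the annotated end in HK1 and 33 bases before it in GAPDH. Which poly(A) sites the cells used was not measured, and no match, as in SLC2A1, PFKP, ALDOA, ENO1 and LDHA, says only that these letters are not in this window.

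**Figure D5:**
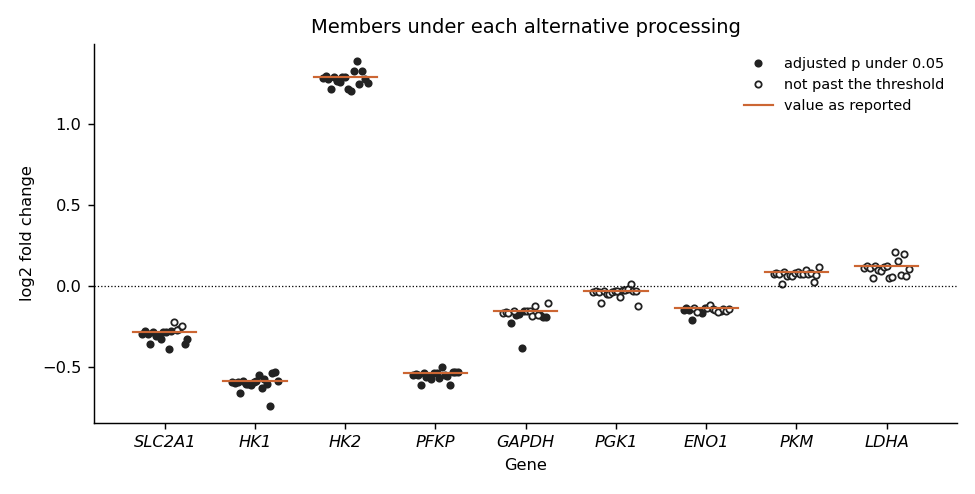
Log2 fold changes of the 9 tested members under each alternative processing (points, filled where the adjusted p was under 0.05), with a bar at the value as reported. HK1, HK2 and PFKP stay called in every alternative in which they were tested, and GAPDH and ENO1 are called in some.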

How the data were processed

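Transcript 3′ ends of 8 libraries were sequenced with the Lexogen QuantSeq FWD V2 kit, per the labels' protocols. The authors deposited whole-number counts of reads per gene for each library, as unstranded, sense and antisense columns. FastQC, fastp, STAR, HTSeq and DESeq2, and the build GRCh38, are named per the submitters' processing notes. Their roles and versions, the gene annotation and whether molecular identifiers were used are not given in the sources used here. Sense-strand counts were used, and they exceeded opposite-strand counts 8.28 to 8.48 times. Totals of reads given to no gene, 56.7% to 62.8% of reads, stayed out.

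Of 78932 identifiers, 61481 had a symbol and 57356 were in GENCODE 29, the source of the coordinates. Genes were filtered with filterByExpr, scaled with TMM and tested with the robust quasi-likelihood test of edgeR 4.0.16 in R 4.3.3, with Benjamini-Hochberg adjustment over 12618 genes and a threshold of 0.05. The fit was tested on simulated data in which few genes were changed. With 57.9% of tested genes called here, that test does not cover how scaling behaves when many genes change. Paralog ratios (pseudocount 1) were compared with 2-sided exact permutation tests. Pairs of replicates differed by more than counting noise (chi-square per degree of freedom 1.82 to 5.09). The members and lists were chosen with earlier results of these data known. Some genes and sequences are not reported here. Named were NUDT21, all members, all reference genes, the paralogs, GPI, TPI1 and PGAM1, and at most 3 called genes at either end of each other list. The neighbour ATP7A and the HIF subunit gene ARNT were named after their values were seen. Alternatives were DESeq2 1.42.0, limma-voom (limma 3.58.1), RLE and library-size scaling, no mitochondrial genes, other filters, counts irrespective of strand, a replicate block, non-robust dispersions, a pseudocount of 0.5 and leaving out each library. The count per list under each alternative was chosen after seeing the data.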

Additional observations from a re-analysis of the deposited data

Results flagged for a closer look

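In groups of 4 libraries, 1 stood far from the other 3 in 7 of 142 groups checked, where chance gives about 1 in 20. PFKP was at 133 CPM in dTAGV1 replicate 1, with the others at 112. GAPDH was at 825 CPM in dTAGV1 replicate 4, with the others at 991 to 1007. PGK1 was at 153 CPM in DMSO replicate 1, with the others at 168 to 169. ALDOC was at 23.0 CPM in DMSO replicate 1, with the others at 7.67 to 8.68, and its log2 fold change without that library was 1.26. HKDC1 was at 1.87 CPM in DMSO replicate 3, with the others at 0.724 to 0.820. HPRT1 was at 15.1 CPM in dTAGV1 replicate 4, with the others at 13.3 to 13.6. The log2 ratio of SLC2A1 to SLC2A3 was 2.09 in dTAGV1 replicate 1, with the others at 2.90 to 2.92.

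Reads on the strand opposite to PGK1, which no comparison above uses, were higher with dTAGV1. DMSO replicates 1 to 4 had 2, 3, 0 and 1 such reads, against 11, 8, 7 and 10 for dTAGV1 replicates 1 to 4, a mean of 0.379 and 2.49 CPM. The groups did not overlap (exact permutation p = 0.0286, adjusted over the 5 members with such reads 0.143). The counts are few. The adjusted p missed the threshold, which a gene at the smallest p could not pass by itself over 5 members, so the adjusted p decides nothing here.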

How the results depend on the processing

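Of 160 alternative values of the 9 tested members, 142 kept their side of the threshold, 3 were weaker, 15 stronger and 0 reversed. Reversed means a change of sign where the gene was called in either fit. PGK1, which was not called, changed sign to 0.01 without dTAGV1 replicate 1. HK1, HK2 and PFKP kept their calls wherever tested. Log2 fold changes ranged from -0.74 to -0.53 for HK1, from 1.204 to 1.39 for HK2 and from -0.62 to -0.50 for PFKP. The 3 weaker values were those of SLC2A1 without DMSO replicate 3 or 4 or dTAGV1 replicate 2. Members called lower numbered 5, GAPDH and ENO1 being added, with library-size scaling, with a mean of at least 100 counts and with counts irrespective of strand. With 1 library left out at a time, 2 to 5 members were lower (5 without dTAGV1 replicate 1) 1 was higher, and 6861 to 7232 genes were called in all. At a mean count of 100 or more, 4120 genes were called and 0 members were higher, since HK2 and LDHA were among the genes not tested. Library-size scaling moved the median of tested genes by -0.07 and the share of calls that were higher from 50.8% to 43.8%. The replicate block called 7434 genes and added GAPDH (-0.16, edgeR adjusted p = 0.0387) to the lower members. No label ties a replicate number to a culture or day, and deviations of same-numbered libraries correlated at 0.135, -0.0221, 0.0253 and 0.0362, so libraries were not taken as paired.

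At a mean count of 100 or more, fewer genes were tested, 6369 in all, of which 4120 were called. The genes called were 5 other glycolytic enzymes, 5 regulators, 3 of pyruvate entry, 2 of the pentose phosphate pathway and 0 of gluconeogenesis. The fit as reported had called 9, 9, 5, 4 and 1. For pyruvate entry it called 5 of 7 tested genes (71.4%, beside 57.9% of all tested genes). With library-size scaling 3 of pyruvate entry were called, and 3 to 5 without each library in turn. Of 988 alternative values of the other genes followed, 37 were weaker, 2 stronger and 1 reversed. PFKFB2 (0.36) reversed with counts irrespective of strand, and the cause was not tested. All 66 alternative values of the 6 paralog ratios kept their side of the threshold, or their size within 1 SD where no p could pass. No pair could pass by itself, so staying on that side was largely set in advance. The SLC2A1 to SLC2A3 difference changed sign, between -0.31 and 0.08, and those of the other pairs kept theirs. With 3 against 4 libraries the smallest exact p is 0.0571, and with sign flips of 4 pairs 0.125, so those settings were compared in size only. Counts of 21 to 34 limit the precision of LDHA.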

Other observations

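In the pentose phosphate pathway, 1 of 8 tested genes was called higher and 3 lower, beside 29.4% and 28.5% of all tested genes. TKT, the transketolase gene, rose from 356 ± 27.4 to 453 ± 71.1 CPM, and RPE, a ribulose phosphate epimerase gene, fell from 21.1 ± 2.65 to 7.12 ± 1.52 CPM (SD, n = 4 each). PGD and H6PD, which encode oxidative-branch dehydrogenases of the cytosol and the endoplasmic reticulum, fell with log2 fold changes of -0.45 and -0.65. G6PC3, of the glucose 6-phosphatase family, fell with one of -0.79, and it was the 1 gene of 7 on the gluconeogenesis list that passed the filter on low counts.

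Pyruvate enters mitochondria through a carrier of MPC1 and MPC2, and these moved in opposite directions, MPC1 from 30.2 ± 1.68 to 16.998 ± 1.88 CPM and MPC2 from 58.0 ± 4.89 to 73.2 ± 12.2 CPM (SD, n = 4 each). Their log2 fold changes were -0.82 and 0.34 (edgeR adjusted p of 1.22e-05 and 0.00871). Without dTAGV1 replicate 4 the value of MPC2 was 0.20 and not past the threshold (edgeR adjusted p = 0.0961). Of pyruvate dehydrogenase, PDHA1 fell by 0.40, and PDHB and PDHX were at 0.27 and 0.33 (log2), calls kept in 13 of 18 and 10 of 17 alternatives. The PDHB call was lost without DMSO replicate 2 or 3 or dTAGV1 replicate 3, and the PDHX call on leaving out replicate 1 of either group, DMSO replicate 3 or dTAGV1 replicate 4. Subunits of NAD-dependent isocitrate dehydrogenase also parted, with IDH3A at -1.18 and IDH3G at 0.92 (edgeR adjusted p of 4.96e-10 and 2.23e-07). Of 15 genes of the TCA cycle, 3 were called higher, among them SDHA (0.46), and 5 lower, among them SUCLG2 (-0.83) and FH (-0.76), or 53.3% in all beside 57.9% of all tested genes.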
